A study of Mus musculus with 9 samples.

Results

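The Bcl2 family genes decide, at the surface of the mitochondrion, whether a cell under stress lives or dies. Described here are 9 of them, of 38215 genes in the expression table: the survival genes Bcl2, Bcl2l1 and Mcl1, the pore-forming Bak1, and the death-inducing Bcl2l11, Bbc3, Pmaip1, Bid and Bad. They were taken by gene symbol, each symbol matched 1 row, and all 9 passed the filter on low counts. The RNA came from the bone marrow of 9 mice of the strain C57BL/6J. All carried Jak2V617F, the activating mutation of the kinase Jak2 found in myeloproliferative neoplasms, and all had been given tamoxifen. The 5 control mice are titled EV, an abbreviation the labels do not spell out, and have Jak2V617F as their only genotype entry. In the other 4 mice the genotype entry adds sgZrsr2, and per the series' design text they combine Jak2V617F with loss of Zrsr2, a splicing factor of the minor spliceosome. The cells sequenced were LSK cells (negative for lineage markers, positive for Sca1 and Kit), the fraction that holds the blood stem cells and multipotent progenitors, and were sorted as positive for GFP and mCherry, taken at the end of the experiment. The age of the mice, what each fluorescent protein marks and how Zrsr2 was targeted are not given in the sources used here.

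The family works by binding among its own members. Survival proteins such as Bcl2, Bcl-xL (from Bcl2l1) and Mcl1 hold the pore formers Bak and Bax in check, and the BH3-only proteins, named after the short BH3 helix that is their only region in common with the rest, release them, after which cytochrome c leaves the mitochondrion and caspases are activated. Mcl1 and Bcl2 are known as survival factors of blood stem cells, and Bcl2l1 of red cell precursors and platelets. Bcl2l11 encodes Bim, Bbc3 Puma and Pmaip1 Noxa. Bcl2l1 and Mcl1 are also known for splice forms with opposite effects on survival. The values below are sums over all transcripts of a gene and do not tell such forms apart.

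For Pmaip1 the sequence is not reported here. What the other 8 members share in sequence is the BH3 core, for which the family is known, so the matches below are a description. The core was looked for in the longest coding sequence of each gene (GENCODE M21, GRCm38). It was taken as a leucine codon, 3 codons of any kind, a codon for glycine, alanine or serine, and an aspartate codon. A codon for aspartate, glutamate or glycine had to follow. Of 21901 protein-coding genes 1888 (8.62%) held such a run, and in the 8 members shown here it occurred once each. The stretches below are given 5′ to 3′ on the coding strand, with 4 codons before the core and 3 after it, and the capitals mark the 6 codons of the core from leucine to aspartate. They are shown because the BH3 helix takes part in the binding between members. The survival genes come first, then the pore former, then the BH3-only genes.
Bcl2, chr1:106712575-106712613, minus strand: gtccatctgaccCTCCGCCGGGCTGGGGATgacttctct
Bcl2l1, chr2:152829697-152829735, minus strand: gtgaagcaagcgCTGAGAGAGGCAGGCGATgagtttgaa
Mcl1, chr3:95659424-95659462, plus strand: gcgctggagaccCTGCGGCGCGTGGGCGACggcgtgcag
Bak1, chr17:27022531-27022569, minus strand: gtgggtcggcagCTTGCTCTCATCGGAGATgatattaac
Bcl2l11, chr2:128147138-128147176, plus strand: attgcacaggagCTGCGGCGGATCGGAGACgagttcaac
Bbc3, chr7:16313761-16313799, plus strand: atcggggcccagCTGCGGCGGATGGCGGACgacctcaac
Bid, chr6:120897289-120897327, minus strand: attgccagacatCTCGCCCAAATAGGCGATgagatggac
Bad, chr19:6950780-6950818, plus strand: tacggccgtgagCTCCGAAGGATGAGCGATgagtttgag

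The libraries held 23238264 to 45585531 expected counts, and the members between 383 (Bad) and 30940 (Mcl1) counts in a library. Zrsr2 was at 53.4 ± 4.94 CPM (TMM-normalized counts, scaled to library size; SD, n = 5) in the controls, against 38.9 ± 5.30 CPM for sgZrsr2 (SD, n = 4). Its groups did not overlap, as in 3.06% of all genes, but its log2 fold change of -0.46 (SE 0.12) did not pass the adjusted threshold (unadjusted p = 0.00321, edgeR adjusted p = 0.714). The genes of the sorted surface markers were detected in every library: Kit was at 247 to 632 CPM and Ly6a, which encodes Sca1, at 14.8 to 49.3 CPM. Markers of other cell types were present to an extent that differed between libraries. The summed level of 8 megakaryocyte genes ran from 156 to 360 CPM with EV and from 254 to 519 CPM with sgZrsr2. For 7 red cell genes the sum was 75.5 CPM in EV mouse 5, 133 CPM in sgZrsr2 mouse 3 and 109.9 CPM in sgZrsr2 mouse 5, against 5.02 to 13.9 CPM in the other 6 libraries. The 8 neutrophil and monocyte genes summed to 122 to 406 CPM with EV and 228 to 427 CPM with sgZrsr2. A sum over 7 lymphoid genes, most of it Dntt, lay between 91.6 and 325 CPM with EV and between 58.3 and 234 CPM with sgZrsr2, and of the 5 that were tested 0 had a fitted log2 fold change above 0 and 0 an unadjusted p under 0.05. Some defining markers of these lists had no count in at least 1 library: Ppbp, Car1, Camp, Retnlg, Ebf1 and Pax5. EV mouse 3 and sgZrsr2 mouse 3 stood apart from the rest. They were the highest of the 9 libraries in 20.2% and 21% of the genes tested and the lowest in 22% and 20.9%, where an even share would be 11.1%. The closest pair was sgZrsr2 mice 1 and 2, with a median coefficient of variation between them of 2.82% over 2396 well-expressed genes. In bulk samples fewer cells of a type and less RNA per cell cannot be told apart, and the part that these markers and libraries have in the results was not tested except where a library was left out.

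None of the 9 genes was called between sgZrsr2 and EV. In edgeR's quasi-likelihood test, 0 of 9 passed the threshold of 0.05 after Benjamini-Hochberg adjustment across the 14944 genes tested, beside 0 of all genes tested (0%), and the adjusted p of the members ran from 0.714 (Bad) to 0.965 (Mcl1). At an unadjusted p under 0.05 there were 0 members, beside 6.85% of all genes tested (3.87% higher and 2.98% lower with sgZrsr2). The DESeq2 Wald test put 0 members past the adjusted threshold and 1, Bad, at an unadjusted p under 0.05 (8.54% of all genes). Groups that did not overlap were found for 0 of 9 members, beside 3.06% of all genes (1.75% higher and 1.32% lower). The fitted log2 fold change was above 0 for 3 members and below 0 for 6, with a median of -0.13, beside -0.01 over all genes tested; without EV mouse 3 the median of the members was 0.08. The confidence intervals show how much change was compatible with the spread between mice. They were narrowest for Bid, from -0.40 to 0.09, and widest for Pmaip1, from -0.99 to 0.57 on the log2 scale. The titles give each library as a mouse of its own.

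**Figure D1:**
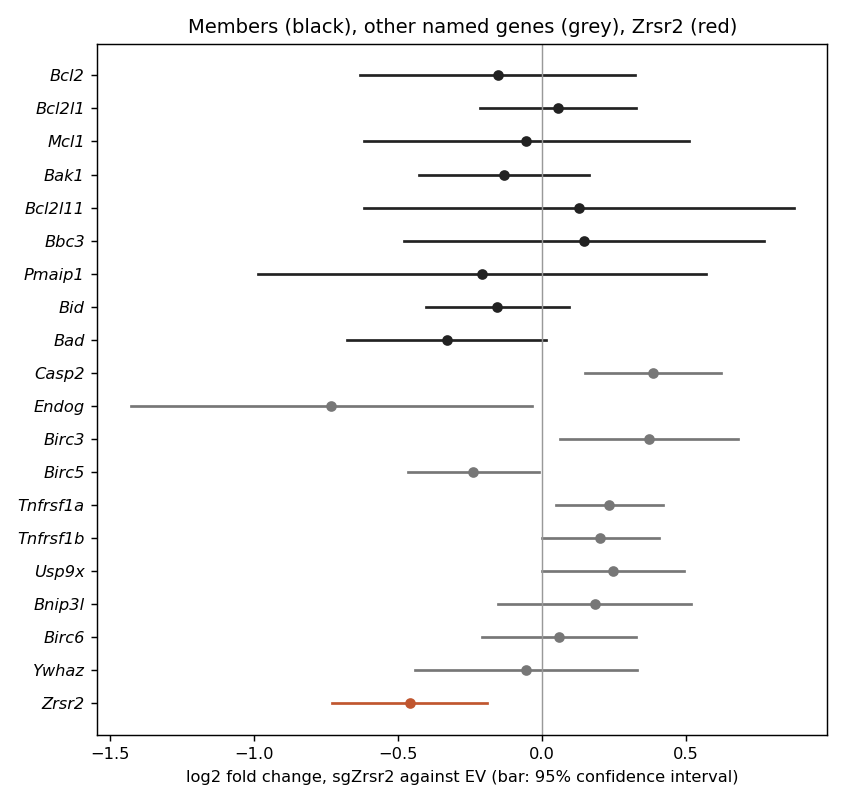
Log2 fold change of sgZrsr2 against EV (x axis) for the 9 members in black, 10 other genes of the death pathway in grey and Zrsr2 in red, with 95% confidence intervals from edgeR's quasi-likelihood fit over 9 libraries. The intervals of all 9 members include 0, and that of Bad reaches it only at its upper end, at 0.02.

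The order of the members by level was dominated by Mcl1. To compare different genes, levels were divided by the length of all annotated exons of a gene, whichever transcripts were expressed. On this scale Mcl1 was at 179.8 ± 52.2 CPM per kb (SD over 9 libraries) and ranked first in all 9. It made up 45.6% to 65.1% of the summed level of the 9 genes. Bak1 followed at 45.3 ± 6.32 CPM per kb and was second in all 9 libraries, so its transcript was the most abundant of the death-promoting members. Next came Bid at 20.2 ± 2.30 CPM per kb and Bcl2 at 17.4 ± 4.18 CPM per kb, in this order in 7 of 9 libraries, so their order was not fixed. Below them lay Bbc3 at 11.9 ± 3.51 and Pmaip1 at 11.5 ± 5.46 CPM per kb, which exchanged places in 4 of 9 libraries, and Bad at 8.58 ± 1.58 CPM per kb. Bcl2l1 was at 6.45 ± 0.612 CPM per kb. Bcl2l11 was the lowest on average at 4.91 ± 2.14 CPM per kb, although 2 libraries put it above Bcl2l1. With exon lengths from the GENCODE basic transcripts alone, a choice made after the data were seen, the order was the same, and Bid moved most, to 32.7 CPM per kb. Parts of the order rest on the lengths. In mean CPM, Bcl2 (166 with EV, 149.6 with sgZrsr2) was above Bak1 (113.5 and 103.6), and Bcl2l11 (37.8 and 41.3) above Bcl2l1 (29.1 and 30.2).

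**Figure D2:**
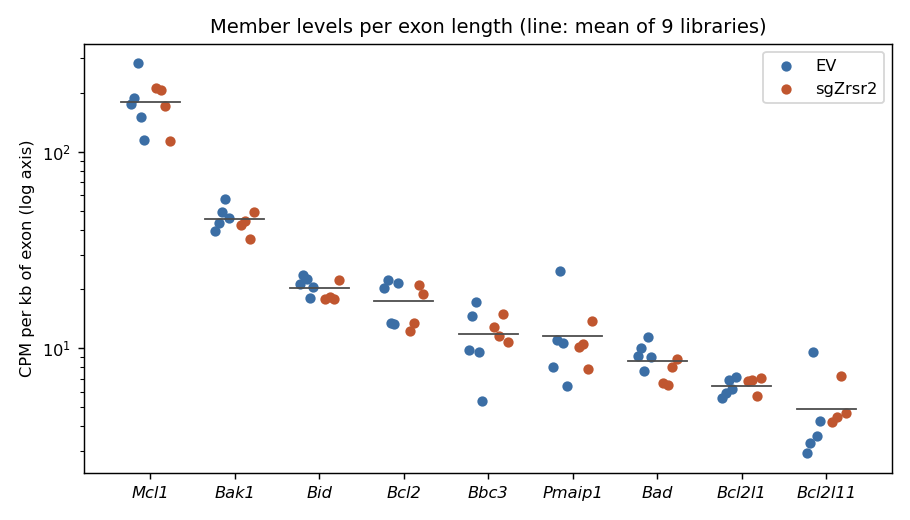
Level of each member in CPM per kilobase of exon (y axis, logarithmic) in the 5 EV and 4 sgZrsr2 libraries, with a line at the mean of the 9. Mcl1 lies above every other member in each library, Bak1 second, and the points of both groups lie among each other for each gene.

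Among the survival genes, Bcl2 (ENSMUSG00000057329, chromosome 1, 106538178 to 106714274, minus strand, GRCm38) had high and low libraries in both groups. It was at 186, 204, 123, 121 and 198 CPM across the EV mice (1 to 5) and at 112, 122, 192 and 172 CPM across the sgZrsr2 mice (1, 2, 3 and 5). The 4 lowest libraries, at 112 to 123 CPM, were EV mice 3 and 4 and sgZrsr2 mice 1 and 2. The summed level of the 7 lymphoid genes was 125.8, 91.6, 58.3 and 67.4 CPM in these 4 libraries, 107 CPM in sgZrsr2 mouse 5 and 217 to 325 CPM in the other 4, and its part in the level of Bcl2 was not tested. The means of 166 ± 40.8 CPM (SD, n = 5) and 149.6 ± 38.5 CPM (SD, n = 4) differed by less than the spread between mice, and the fitted log2 fold change was -0.15 (SE 0.22, interval -0.63 to 0.32; edgeR adjusted p = 0.863; two-sided exact permutation p = 0.413). Its value depended on single libraries: it was -0.30 without sgZrsr2 mouse 3 and -0.04 without sgZrsr2 mouse 1. The expected counts of Bcl2 were whole in 2 of 9 libraries, so its level is uncertain to that extent. An antisense gene inside it had 0 to 10.4 expected counts.

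Bcl2l1 (ENSMUSG00000007659, chromosome 2, 152780668 to 152831728, minus strand), which encodes Bcl-xL and is known as a target of the Jak2-Stat5 pathway, was the steadiest of the 9. It was at 25.5, 27.0, 31.6, 28.4 and 32.8 CPM across the EV mice (1 to 5) and at 31.2, 31.4, 26.1 and 32.2 CPM across the sgZrsr2 mice (1, 2, 3 and 5). Its coefficient of variation over the 9 libraries was 9.49%, lower than that of all but 11.1% of the 9630 genes whose mean reached 10 CPM. The group means were 29.1 ± 3.05 against 30.2 ± 2.77 CPM, and the fitted log2 fold change was 0.06 (SE 0.12, interval -0.22 to 0.33; edgeR adjusted p = 0.914; exact permutation p = 0.635). The interval leaves room for a fold of 0.861 to 1.26.

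Mcl1 (ENSMUSG00000038612, chromosome 3, 95658721 to 95663176, plus strand), whose protein is short-lived and renewed from its transcript, was at 601, 647, 965, 517 and 394 CPM across the EV mice (1 to 5). The values were 722, 709, 589 and 387 CPM across the sgZrsr2 mice (1, 2, 3 and 5). EV mouse 3 held the highest value and mouse 5 the lowest in both groups. The groups overlapped over nearly their whole range (625 ± 213 against 602 ± 155 CPM), and the fitted log2 fold change was -0.05 (SE 0.26, interval -0.62 to 0.51; edgeR adjusted p = 0.965; exact permutation p = 0.873). The direction was not stable: without EV mouse 3 it was 0.15 and without sgZrsr2 mouse 5 it was 0.11. With at least 13552 counts in every library, counting error was at most 0.859% of the level, far below the spread between mice. EV mouse 5 and sgZrsr2 mouse 5, the lowest for Mcl1, were also among the 3 libraries with high sums of red cell genes. The remaining library of the 3, sgZrsr2 mouse 3, had the highest sum (133 CPM) but had Mcl1 at 589 CPM. The part of red cells in the level of Mcl1 was not tested.

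**Figure D3:**
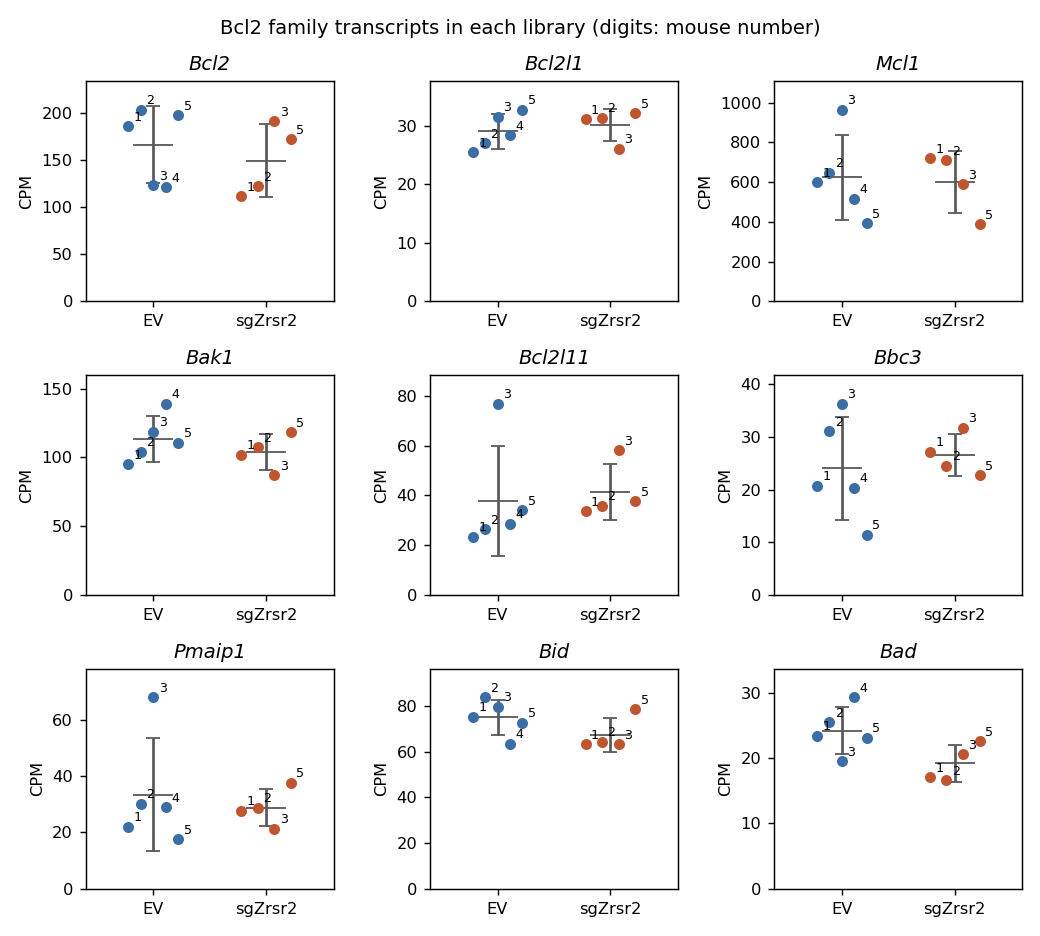
CPM of each member (y axis, from 0) in every library, by group, with the mouse number beside each point and the mean and SD of the group as a bar. EV mouse 3 is the highest point for Mcl1, Bcl2l11, Bbc3 and Pmaip1, and the groups overlap in each panel.

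The pore former Bak1 (ENSMUSG00000057789, chromosome 17, 27019810 to 27029009, minus strand) was at 95.1, 104, 119, 139 and 111 CPM across the EV mice (1 to 5) and at 102, 107, 87.0 and 118 CPM across the sgZrsr2 mice (1, 2, 3 and 5). EV mouse 4 was the highest and sgZrsr2 mouse 3 the lowest, with the rest in between. Its log2 fold change was -0.13 (SE 0.13, interval -0.43 to 0.16; edgeR adjusted p = 0.809; exact permutation p = 0.365). Ggnbp1 lies over the whole of Bak1 on the opposite strand with 191 to 679 expected counts, and Bak1 itself had whole-number counts in 2 of 9 libraries. Whether reads were counted by strand is not given in the sources used here, and the level of Bak1 is uncertain to that extent. The other pore former, Bax, had a mean of 43.4 ± 8.15 CPM in the controls against 38.4 ± 2.12 CPM (edgeR adjusted p = 0.757).

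Of the BH3-only genes, Bcl2l11, Bbc3 and Pmaip1 varied more between mice than the other 6 members, and Bid and Bad varied less. Bcl2l11 (ENSMUSG00000027381, chromosome 2, 128126038 to 128162547, plus strand), whose product Bim binds all the survival proteins, was at 23.4, 26.4, 76.8, 28.6 and 34.1 CPM across the EV mice (1 to 5). The values were 33.7, 35.8, 58.1 and 37.7 CPM across the sgZrsr2 mice (1, 2, 3 and 5). Mouse 3 was the highest in both groups, and EV mouse 3 the highest of all. The means were 37.8 ± 22.1 against 41.3 ± 11.3 CPM, and the fitted log2 fold change was 0.13 (SE 0.34, interval -0.62 to 0.88; edgeR adjusted p = 0.927; exact permutation p = 0.794). EV mouse 3 decided this value. Without it, the EV mean was 28.6 ± 4.74 CPM against 41.8 ± 11.4 CPM, and the fitted value was 0.55 (SE 0.20, interval 0.12 to 0.99) with an unadjusted p of 0.0182 and an edgeR adjusted p of 0.661. The groups then still touched, since EV mouse 5 at 34.7 CPM lay above the lowest sgZrsr2 library at 34.1 CPM. Without sgZrsr2 mouse 3 the log2 fold change was -0.08 and without EV mouse 1 it was -0.002 (-0.00226), so no direction held for Bcl2l11.

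Bad (ENSMUSG00000024959, chromosome 19, 6941861 to 6951898, plus strand), whose product binds Bcl2 and Bcl-xL but not Mcl1, came nearest to a difference. It was at 23.4, 25.5, 19.5, 29.3 and 23.1 CPM across the EV mice (1 to 5) and at 17.1, 16.6, 20.6 and 22.5 CPM across the sgZrsr2 mice (1, 2, 3 and 5). All sgZrsr2 libraries lay below 4 of the 5 EV libraries, and EV mouse 3 alone made the groups overlap. The log2 fold change was -0.33 (SE 0.16, interval -0.68 to 0.02; unadjusted p = 0.0597, edgeR adjusted p = 0.714; exact permutation p = 0.0794). Without EV mouse 3 the groups did not overlap, at 25.8 ± 3.12 against 19.4 ± 2.93 CPM, and the log2 fold change was -0.40 with an unadjusted p of 0.0235 and an edgeR adjusted p of 0.661. Leaving out sgZrsr2 mouse 5 gave -0.42 (unadjusted p = 0.0341, edgeR adjusted p = 0.62; 7.58% of all genes at an unadjusted p under 0.05). Leaving out the 3 libraries with high red cell genes together gave -0.53 (unadjusted p = 0.0297, edgeR adjusted p = 0.408) and groups that did not overlap, beside 23.2% of all genes. In the fit without EV mouse 3, 5.4% of all genes had groups that did not overlap and 7.44% an unadjusted p under 0.05. The fit without the 3 libraries kept only mice 1 and 2 of sgZrsr2, the closest pair of the series (median coefficient of variation 2.82%). Other settings weakened the change. It was -0.25 without EV mouse 4, -0.28 without sgZrsr2 mouse 1 and -0.27 without sgZrsr2 mouse 2. With sgZrsr2 mice 1 and 2 averaged it was -0.28, and with the mouse number as a block -0.26. None of these weaker settings put Bad at an unadjusted p under 0.05. Bad was lower with sgZrsr2 in all 21 other settings (-0.53 to -0.25), and in none of them passed the adjusted threshold. Its expected counts were not whole in 8 of 9 libraries, which RSEM gives where reads match more than 1 gene or place, and the first bases of the gene, from 6941861 to 6942450, are shared with Gpr137 on the opposite strand (294 to 907 counts). Its level is therefore uncertain.

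Pmaip1 (ENSMUSG00000024521, chromosome 18, 66458604 to 66465550, plus strand), whose product Noxa binds Mcl1, was the most variable of the 9. It was at 22, 30.2, 67.9, 28.9 and 17.6 CPM across the EV mice (1 to 5) and at 27.8, 28.8, 21.3 and 37.6 CPM across the sgZrsr2 mice (1, 2, 3 and 5). EV mouse 3 was more than any other library, and sgZrsr2 mouse 3 was the lowest of its group. The log2 fold change of -0.21 (SE 0.35, interval -0.99 to 0.57; edgeR adjusted p = 0.89; exact permutation p = 0.857) became 0.22 without EV mouse 3.

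Bbc3 (ENSMUSG00000002083, chromosome 7, 16309616 to 16318205, plus strand), whose product Puma is best known as a target of p53, was at 20.8, 31.1, 36.4, 20.4 and 11.5 CPM across the EV mice (1 to 5). The values were 27.2, 24.6, 31.8 and 22.7 CPM across the sgZrsr2 mice (1, 2, 3 and 5), all within the range of EV. The log2 fold change was 0.15 (SE 0.28, interval -0.48 to 0.77; edgeR adjusted p = 0.904; exact permutation p = 0.651), and it was 0.34 without EV mouse 3 and -0.03 without EV mouse 5. The gene of p53, Trp53, ranged from 163 to 232 CPM in the controls and from 157 to 245 CPM for sgZrsr2.

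Bid (ENSMUSG00000004446, chromosome 6, 120891930 to 120916853, minus strand), which links death receptors to the mitochondrion once caspase 8 has cut it, was at 75.4, 83.8, 79.6, 63.6 and 72.8 CPM across the EV mice (1 to 5). The values were 63.4, 64.4, 63.3 and 78.6 CPM across the sgZrsr2 mice (1, 2, 3 and 5). Of the sgZrsr2 libraries 3 were within about 1 CPM of each other and mouse 5 was well above them. The log2 fold change was -0.15 (SE 0.11, interval -0.40 to 0.09; edgeR adjusted p = 0.745; exact permutation p = 0.175) and -0.24 without sgZrsr2 mouse 5. The 3′ end of Bid, from 120891930 to 120892842, is shared with another family gene, Bcl2l13, on the opposite strand, which was itself at 76.7 to 102.5 CPM. The expected counts of Bid were whole in 8 of 9 libraries, so they show little sign of reads shared with Bcl2l13.

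The spread between mice was largest for 5 of the 9 members. The coefficient of variation over the 9 libraries was 47.6% for Pmaip1, 43.7% for Bcl2l11, 29.6% for Bbc3, 29% for Mcl1 and 24.1% for Bcl2, where the median of 9630 genes was 17%. Of those genes 97.1% varied less than Pmaip1, 96.3% less than Bcl2l11, 87.1% less than Bbc3, 86.2% less than Mcl1 and 76.7% less than Bcl2. Much of the spread of Pmaip1 and Bcl2l11 came from EV mouse 3. Without it their SD among the EV mice fell from 19.99 to 6.06 CPM and from 22.1 to 4.74 CPM. Bad at 18.4%, Bak1 at 13.9% and Bid at 11.4% were near or below the median. From the lowest to the highest library Pmaip1 differed by 3.86-fold, Bcl2l11 by 3.29-fold and Bbc3 by 3.16-fold, against 1.28-fold for Bcl2l1.

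**Figure D4:**
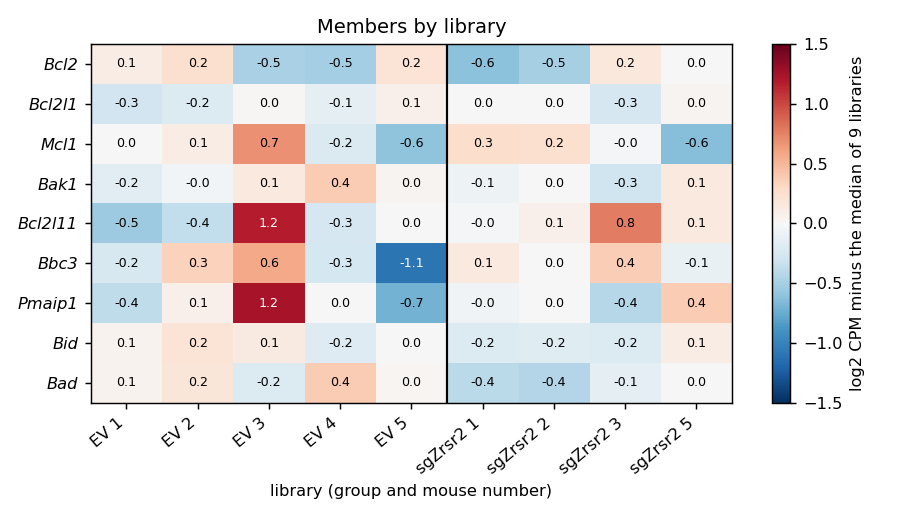
Log2 CPM of each member (rows) in each library (columns), less the median of the 9 libraries; red is above and blue below it, and the black line separates EV from sgZrsr2. EV mouse 3 is 1.17 above the median for Bcl2l11 and 1.24 for Pmaip1, and Bbc3 is 1.10 below it in EV mouse 5 (-1.1).

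EV mouse 3 held the highest level of 4 of the 9 genes, the BH3-only genes Bcl2l11, Bbc3 and Pmaip1 and the survival gene Mcl1, while its Bcl2 was among the 4 lowest. Its scaling factor was the lowest of the 9 (0.894), and by library totals alone its levels were smaller but still the highest for Bcl2l11 at 68.6 CPM, Pmaip1 at 60.6 CPM and Mcl1 at 862 CPM. For Bbc3, at 32.5 CPM, it was then below sgZrsr2 mouse 3 at 34.1 CPM. Ratios of counts between members need no scaling. The ratio of Bcl2l11 to Bcl2 counts was 0.126, 0.130, 0.623, 0.236 and 0.172 across the EV mice (1 to 5) and 0.301, 0.293, 0.303 and 0.219 across the sgZrsr2 mice (1, 2, 3 and 5). All 4 sgZrsr2 libraries were above EV mice 1, 2 and 5, EV mouse 4 lay among them and EV mouse 3 above them all, so the groups overlapped with or without EV mouse 3. The ratio of Mcl1 to Bcl2 ran from 1.99 to 7.83 with EV and from 2.25 to 6.45 with sgZrsr2. The ratio of Pmaip1 to Mcl1, the partners of which the one opposes the other, was 0.0366 to 0.0704 with EV and 0.0362 to 0.0405 in sgZrsr2 mice 1, 2 and 3, with 0.097 in sgZrsr2 mouse 5. As the ratios were formed after their levels had been seen, no test is given for them.

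**Figure D5:**
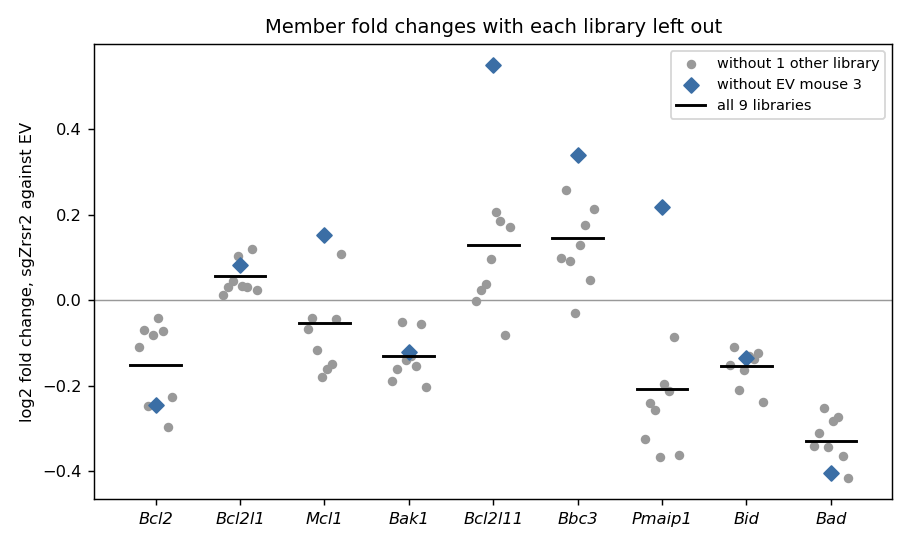
Log2 fold change of each member, sgZrsr2 against EV (y axis), over all 9 libraries (black line), without EV mouse 3 (blue diamond) and without each of the other 8 libraries (grey). Leaving out EV mouse 3 gives the highest value for Mcl1, Bcl2l11, Bbc3 and Pmaip1, and moves Bcl2l11 from 0.13 to 0.55.

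Windows at annotated start sites of the members were searched on both strands for 3 motifs known from this pathway. These were 14 RefSeq promoters (250 bases before to 50 after a start site, GRCm38.p6) of 8 members. The motifs were TTCNNNGAA, bound by Stat factors, TGTTTAC, bound by Foxo factors, and TGACGTCA, the cyclic AMP response element. TGTTTAC occurred in 1 window each of Bcl2l11 and Bbc3, both of which are known as targets of Foxo3, and in 3.65% of the 32851 windows of all genes. The other 2 motifs occurred in none of the 14 windows, beside 8.3% for the Stat motif and 1.79% for the cyclic AMP response element among all windows. These matches describe the sequence and do not show binding. The stretches around the matches follow, with the motif in capitals, in its reverse complement for Bcl2l11. The motif begins 227 bases before the start site in Bcl2l11 and 167 before it in Bbc3. In Bbc3 it lies inside the gene, which begins at 16309616, ahead of a start site further in.
Bcl2l11, chr2:128125796-128125832, plus strand: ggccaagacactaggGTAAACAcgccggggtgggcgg
Bbc3, chr7:16310079-16310115, plus strand: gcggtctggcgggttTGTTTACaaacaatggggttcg
Foxo3 was at 149, 148, 96.5, 116 and 194 CPM across the EV mice (1 to 5) and at 141, 145, 246 and 204 CPM across the sgZrsr2 mice (1, 2, 3 and 5), with a log2 fold change of 0.39 (SE 0.22; edgeR adjusted p = 0.718; exact permutation p = 0.206). It was lowest in EV mouse 3, where Bcl2l11 and Bbc3 were highest, and Foxo3 was named here because of this motif, after its values were seen.

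For each member the genes with the most similar pattern were taken by Pearson r of log2 CPM over the 9 libraries, among 9629 genes whose mean reached 10 CPM. They are the highest of many values and carry no test. Mcl1 was most like Ppp1r15a, a stress-induced regulator of a phosphatase (r 0.982, Spearman rho 0.95), and r was 0.976 without EV mouse 3. Bcl2l1 was most like Nacc1 (r 0.994, rho 1), Bcl2 most like Lbh (r 0.974, rho 0.8) and Bak1 most like Ssbp4 (r 0.98, rho 0.983). Bbc3 had its nearest gene in Klf2, a transcription factor (r 0.859, rho 0.9), which was the weakest likeness of the 9. For Bcl2l11 the nearest was Fam43a, with r 0.964 over all libraries and 0.924 without EV mouse 3, and for Pmaip1 it was Dhx38, with r 0.959 and 0.87 without EV mouse 3. Bid was most like Itgal (r 0.972, rho 0.883) and Bad most like Lactb2 (r 0.982, rho 0.983). The points share library and depth, so likeness here is over the same 9 libraries only.

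The rest of the death pathway was followed in 65 listed genes, of which 60 were tested. None passed the adjusted threshold in edgeR's test. At an unadjusted p under 0.05 were 5 with a higher and 2 with a lower level in sgZrsr2 (11.7%, beside 6.85% of all genes), and 4 had groups that did not overlap (6.67%, beside 3.06%). The lists were written with earlier results of these data known, so these shares are a description. Of the 16 other Bcl2 family genes 11 were tested, 0 of them at an unadjusted p under 0.05, and their median log2 fold change was -0.15 (up to 0.142 in the alternative settings); the most abundant was Bnip3l, at 87.8 ± 18.6 and 99.7 ± 7.71 CPM.

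Casp2, an initiator caspase that can cut Bid, stood out most among the 14 genes of the caspases and the apoptosome, the complex that activates them. It was at 127, 112, 100.5, 104 and 133 CPM across the EV mice (1 to 5) and at 148, 151, 154 and 151 CPM across the sgZrsr2 mice (1, 2, 3 and 5). No EV library reached the lowest of sgZrsr2, and the log2 fold change was 0.39 (SE 0.11, interval 0.15 to 0.62; unadjusted p = 0.00435, edgeR adjusted p = 0.714; exact permutation p = 0.0159, the smallest that 5 against 4 libraries can give). It was 0.34 to 0.44 when single libraries were left out in turn. Endog, a nuclease of the mitochondrion, was at 12.5 ± 6.05 and 7.52 ± 1.62 CPM (log2 fold change -0.73, edgeR adjusted p = 0.714), and EV mouse 4 at 22.97 CPM was far above the other EV libraries, and without it the value was -0.39. The median log2 fold change of this list was -0.11.

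Of 8 genes listed as caspase inhibitors, 7 had a higher and 1 a lower level with sgZrsr2, and the lower gene was Birc5. The median log2 fold change was 0.23 (between -0.000919 and 0.281 over the alternative settings). Naip2 (log2 fold change 0.12) and Naip5 (0.44) were among the 7, and whether they inhibit caspases in these cells was not tested. Birc5, which encodes survivin and is also a gene of dividing cells, was at 73.3 ± 6.497 and 62.1 ± 5.24 CPM (log2 fold change -0.24, edgeR adjusted p = 0.714). Its groups were separated only just, with the lowest EV library at 66.66 CPM and the highest sgZrsr2 library at 66.65 CPM. Birc3 was at 35.9 ± 5.74 and 46.5 ± 5.30 CPM (log2 fold change 0.37, edgeR adjusted p = 0.714; groups overlapping). Birc6, the most abundant of the list, was at 256 ± 28.9 and 267 ± 30.2 CPM.

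A list of 9 genes held death receptors, receptors of tumour necrosis factor and their signalling partners. In it the 2 receptors of tumour necrosis factor had groups that did not overlap, beside 3.06% of all genes. Tnfrsf1a was at 93.3 to 102 CPM with EV and 108 to 120 CPM with sgZrsr2 (119.8 at most), and the fitted log2 fold change was 0.24 (SE 0.08; unadjusted p = 0.0181, edgeR adjusted p = 0.714). Tnfrsf1b was at 62.4 to 75.9 CPM with EV and 79.3 to 85.0 CPM with sgZrsr2, and its fitted log2 fold change was 0.20 (SE 0.09; unadjusted p = 0.0482, edgeR adjusted p = 0.714). The median of the list was 0.03 and changed sign between settings (-0.105 to 0.0866). Among 18 regulators of the members, Usp9x, a deubiquitinase that spares Mcl1 from degradation, was at 177 ± 20.2 and 209.9 ± 16.1 CPM (log2 fold change 0.25, unadjusted p = 0.0492, edgeR adjusted p = 0.714), with overlapping groups. By the mean of all libraries the most abundant regulator was Ywhaz, a 14-3-3 protein of the kind that holds Bad in the cytosol. Ywhaz was at 668 ± 137 and 644 ± 130 CPM (130.4), and Huwe1, at 595 and 674 CPM, was above it with sgZrsr2. The list had a median of 0.07, and 0 of its 18 genes had groups that did not overlap, beside the same 3.06%.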

How the data were processed

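The authors deposited unnormalized expected counts from RSEM, 1 value per Ensembl gene and mouse. The submitters' processing notes name cutadapt 1.11, RSEM 1.2.30 and GRCm38; the aligner, annotation release and strandedness are not given in the sources used here. Per the labels' protocols, polyadenylated RNA was taken from 5 ng of total RNA and amplified by PCR. The expected counts were rounded; filterByExpr, with a minimum count of 10 and a minimum total of 15, kept 14944 genes; scaling was by TMM. All 9 libraries entered 1 fit in edgeR 4.0.16 (estimateDisp, glmQLFit, glmQLFTest; R 4.3.3), and p-values were adjusted by Benjamini-Hochberg over the whole table. The standard error is the log2 fold change over the square root of F, and 95% intervals use it. For single levels a two-sided exact permutation test enumerated the 126 splits, with no adjustment over the members. The fit was checked on simulated data in which each gene varied on its own, so shifts shared by many genes of a library were not covered. Exon lengths came from GENCODE M21, promoters from RefSeq. Alternatives were RLE and upper-quartile factors or none, other filters, unrounded counts, robust dispersion, DESeq2 1.42.0, limma-voom (limma 3.58.1), mouse number as a block, and libraries left out or averaged; the use of no factors and of basic-transcript lengths was added after seeing the data.

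The members and lists were chosen with earlier results of these data known. Genes named were the 9 members, Zrsr2, each pathway gene with an unadjusted p under 0.05 or groups that did not overlap, the most abundant gene of each list, and the nearest genes of each member. Foxo1, Foxo3, Trp53, Huwe1, Bax, Bcl2l13, Naip2, Naip5, Kit and Ly6a were added as context. Of the lymphoid marker list 1 gene is not reported here, and the sum of the other 7 was added after seeing the data.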

Additional observations from a re-analysis of the deposited data

Results flagged for a closer look

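A library was singled out where its distance to the closest other library of its group made up most of the span of that group. This was done for the 9 members, Zrsr2, the 10 pathway genes named by rule and the 8 member ratios. It picked out 12 of 56 sets, and about 2.8 would arise by chance; the sets are not independent, since ratios reuse the genes and some libraries stand apart in many genes at once.

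EV mouse 3 was far above the other EV libraries for Bcl2l11 (76.8 CPM against 23.4 to 34.1), Pmaip1 (67.9 against 17.6 to 30.2), Ywhaz (907 against 575 to 655), Zrsr2 (62.2 against 50.6 to 51.9) and the ratio of Bcl2l11 to Bcl2 counts (0.623 against 0.126 to 0.236). sgZrsr2 mouse 3 was above its group for Bcl2l11 (58.1 CPM against 33.7 to 37.7) and below it for Bcl2l1 (26.1 against 31.2 to 32.2). sgZrsr2 mouse 5 was above its group for Bid (78.6 CPM against 63.3 to 64.4) and for the ratio of Pmaip1 to Mcl1 counts (0.097 against 0.0362 to 0.0405), and below it for the ratio of Bcl2l11 to Bcl2 counts (0.219 against 0.293 to 0.303). EV mouse 4 was high for Endog (23 CPM against 7.77 to 12) and low for Birc6 (205 against 266 to 275).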

How the results depend on the processing

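In 12 alternative settings and 9 fits without a library, 0 members passed the adjusted threshold. All genes past it numbered 0, except 16 with the DESeq2 Wald test and 1 with sgZrsr2 mice 1 and 2 averaged; the cause was not tested. Genes with an unadjusted p under 0.05 numbered 1024, but 2551 under limma-voom with quality weights, 341 with the mouse number as a block, 1692 with EV mouse 5 and sgZrsr2 mice 3 and 5 left out together, and 609 to 1292 without a library (609 without EV mouse 4). Members at an unadjusted p under 0.05 numbered 0, but 1 with DESeq2 (Bad, 8.54% of all genes) and 1 without the 3 libraries (Bad, 11% of all genes). Under limma-voom there were 4 (Bcl2 -0.52, Bcl2l11 0.46, Bid -0.25 and Bad -0.43). There 17.1% of all genes were called and EV mouse 3 had the lowest weight, 0.294. Without a library there were 0 to 2: Bcl2l11 and Bad without EV mouse 3 (7.44% of all genes) and Bad without sgZrsr2 mouse 5 (7.58% of all genes). Members whose groups do not overlap numbered 1 without the 3 libraries (Bad, beside 23.2% of all genes). Without a library they numbered 0 to 1 (Bad without EV mouse 3, beside 5.4% of all genes).

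Of 20 gene fold changes followed, 13 kept their direction in every setting and 7 did not. Under limma-voom Mcl1 was 0.0953, Bak1 0.000487, Pmaip1 0.104, Birc6 -0.0615 and Ywhaz 0.174. Without the 3 libraries Mcl1 was 0.0749, Bcl2l11 -0.154, Bbc3 -0.0607, Birc6 -0.0573 and Ywhaz 0.142. Without a library, Mcl1 reached -0.18 to 0.152, Bcl2l11 -0.0806 to 0.551, Bbc3 -0.0295 to 0.339, Pmaip1 -0.367 to 0.219, Birc6 -0.0114 to 0.103 and Ywhaz -0.151 to 0.0739. Birc6 was -0.0165 with the mouse number as a replicate block, which turned no other named gene. The mouse numbers were not found to pair the samples: the deviations of same-numbered mice from their group means correlated at -0.227, -0.0904, -0.404 and 0.369 for numbers 1, 2, 3 and 5, and 1 of the 4 sgZrsr2 libraries was most like the EV library of its own number. Depth limits Bad and Bbc3 most, with counting errors of up to 5.11% and 5.03% of the level.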
